A study of Homo sapiens with 12 samples.

Results

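The 2 groups compared here, R2 and R1, are both tumours of the established human melanoma line WM1366 that progressed under one diet holding a MEK inhibitor and a CDK4/6 inhibitor. They were chosen by sample title, 4 libraries of each, which makes 8 of the 12 RNA sequencing libraries of the series. The other 4 come from tumours on a control diet and are given only for reference. The series text describes xenografts. The sample text describes melanoma cells in medium with bovine insulin and names palbociclib (0.1 uM) and PD0325901 (1 nM) for every sample, the control group included. Nothing in the labels says what separates R2 from R1, whether a group comes from 1 tumour or several, or whether its 4 libraries are separate tumours, separate cultures or repeat preparations, so p-values measure the spread between these libraries, which may be technical. WM1366 is known for an activating NRAS mutation, and all groups share that line, so the comparison concerns 1 genetic background. Human tumour RNA in a mouse host can carry host reads, and these were not told apart here.

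Palbociclib blocks CDK4 and CDK6, the kinases that bind D-type cyclins and inactivate the retinoblastoma protein so that cells can copy their DNA. PD0325901 blocks MEK1 and MEK2, the kinases between RAF and ERK in the cascade that RAS proteins switch on. Melanoma cells with mutant NRAS are known to depend on that cascade, and resistant tumours are known for raised pathway genes, altered cell states and altered metabolism. The comparison asks how 2 resistant groups under the same inhibitors differ from each other.

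The 8 libraries held between 21456002 and 39009384 reads in 12931 listed genes. On the first principal component (67.1% of the variance) R1 lay between -49.4 and -35.8 and R2 between 39.2 and 46.0. The next component (11.9%) set R1 replicate 2 (40.5) apart from R1 replicates 1, 3 and 4 (0.984, -24.3 and -16.9). The third (10.7%) set R2 replicates 1 and 2 (15.2 and 31.5) apart from R2 replicates 3 and 4 (-21.8 and -24.7). On the log2 scale the median SD of a gene within a group was 0.175 for R2 and 0.239 for R1, which became 0.188 without R1 replicate 2. R2 replicate 3 had 3.86% of its reads in transcripts of the mitochondrial genome, against 8.11% to 9.19% in the other R2 libraries and 1.99% to 3.12% in R1. Of the melanoma lineage genes fixed for checking the label, MITF, PAX3, PMEL, CSPG4 and MCAM were measured, 5 of 12, and their summed value was 860.5 to 1006 in R2, 712 to 823 in R1 and 872 to 978 in control. MCAM made up most of that sum, with means of 881 in R2 and 614 in R1. By the test described below, 1 of the 5 (MCAM) was higher in R2 and 3 (PAX3, PMEL and CSPG4) were higher in R1.

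**Figure D1:**
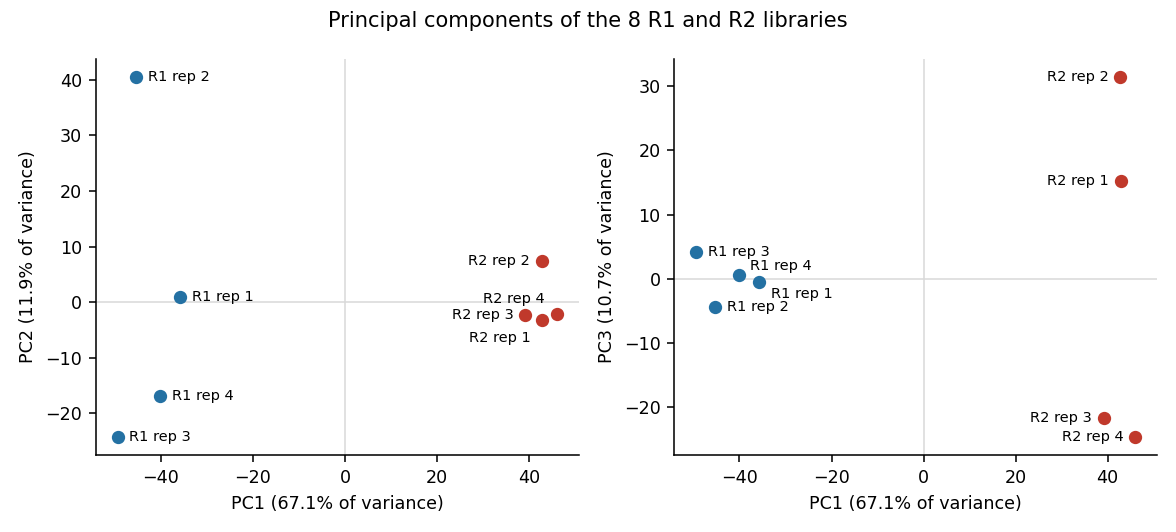
Scores of the 8 R1 (blue) and R2 (red) libraries on the first 3 principal components of log2(value + 0.5), with PC1 on both x axes and PC2 and PC3 on the y axes. R1 lies at -49.4 to -35.8 on PC1 and R2 at 39.2 to 46.0, R1 replicate 2 stands alone on PC2 at 40.5, and the R2 libraries split on PC3.

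R2 and R1 differed widely. A gene is called here when the limma test, fitted over all 12 libraries and adjusted over 12931 genes by the Benjamini-Hochberg method, gave an adjusted p under 0.05. By that rule 6053 genes (46.8%) were called, 2945 (22.8%) higher in R2 and 3108 (24.0%) higher in R1. More than 2-fold differences were called for 1446 genes (11.2%), 571 higher in R2 and 875 higher in R1, and more than 8-fold ones for 32 and 72. The 4 values of R2 and the 4 of R1 did not overlap for 5095 genes (39.4%), of which 4851 were called. The median size of the difference was 0.37 (log2) over all genes and 0.67 over the called ones. Counts for gene groups below are read against the 22.8% and 24.0% of all genes called in each direction. Since this is bulk RNA, fewer cells of a type and less RNA per cell cannot be told apart. Values are normalised signals, given for replicates 1 to 4 in that order, and differences are R2 minus R1 on the log2(value + 0.5) scale, which understates the change of genes with low values.

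Among the genes highest in R2 relative to R1 were a pair of neighbours in the beta-globin region of chromosome 11. HBE1, the embryonic beta-like globin (chr11:5268345-5269945, GRCh38), read 78.3, 67.9, 61.2 and 46.6 in R2 and 0.146, 0.0439, 0.19 and 0 in R1 (log2 difference 6.74, SE 0.21, adjusted p = 1.9e-11). OR51B4, an olfactory receptor gene (chr11:5301014-5301946), read 35.2, 35.4, 36.4 and 37.9 in R2 and 0.0485, 0.0439, 0.038 and 0 in R1 (log2 difference 6.11, SE 0.14, adjusted p = 1.2e-12). All R1 values of both genes were below 0.2, and control was between the groups for both, at 28.7 ± 8.41 (SD, n = 4) and 15.2 ± 2.87 (SD, n = 4). SSX1, a cancer-testis antigen on the X chromosome, read 23.4, 22.3, 44.1 and 47.7 in R2 and 0.194, 0.351, 0.342 and 0.432 in R1 (log2 difference 5.32, SE 0.23, adjusted p = 5.8e-10). SDPR (cavin-2), a coat protein of caveolae, read 29.7, 20.9, 15 and 15 in R2 and 0.0728, 0.0878, 0.114 and 0.0309 in R1 (log2 difference 5.11, SE 0.18, adjusted p = 7.7e-11). CPVL, a serine carboxypeptidase, read 16.7, 23.6, 15 and 13.6 in R2 and 0.0243, 0.0439, 0 and 0.0927 in R1 (log2 difference 5.01, SE 0.17, adjusted p = 4.9e-11). These genes were near absent from every R1 library and present in every R2 library. The control mean was 50.8 ± 2.24 (SD, n = 4) for SDPR and 20.4 ± 2.48 (SD, n = 4) for CPVL. COL24A1, a fibrillar collagen, and BCAN, the brain proteoglycan brevican, were high in R2 alone. Every listed gene passed 1 CPM (reads scaled to library size) in at least 4 of the 12 libraries. COL24A1 and BCAN were listed only because the R2 libraries passed it, so their pattern partly reflects which genes were listed. COL24A1 read 18.9, 30.7, 16.7 and 18.9 in R2 and 0.218, 0.439, 0.114 and 0.124 in R1 (log2 difference 4.89, SE 0.20, adjusted p = 3.4e-10), with control at 0.0787 ± 0.0211 (SD, n = 4). BCAN read 18.5, 17.1, 8.71 and 7.67 in R2 and 0.0243, 0.176, 0.038 and 0 in R1 (log2 difference 4.50, SE 0.25, adjusted p = 1.1e-08), with control at 0.0332 ± 0.0399 (SD, n = 4).

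The other genes with the largest excess in R2 belonged to varied families. NHS, a regulator of actin and cell shape, read 21.3, 24.8, 17.6 and 19.7 in R2 and 0.315, 1.4, 0.038 and 0.154 in R1, and RYR1, a calcium release channel best known from skeletal muscle, read 12.7, 12.3, 13.9 and 12.6 in R2 and 0.0243, 0.0439, 0.0759 and 0.0618 in R1. Their differences were 4.62 and 4.60 (adjusted p = 3.7e-08 and 7.0e-11). SHISA9, an auxiliary protein of AMPA receptors, read 26.7, 10.4, 31.7 and 33 in R2 and 1.53, 0.614, 0.342 and 0.247 in R1 (4.45, adjusted p = 3.0e-07). GFRA1, the co-receptor of the growth factor GDNF, read 74, 51.9, 71.4 and 69.7 in R2 and 4.83, 3.25, 1.63 and 1.92 in R1 (4.39, adjusted p = 4.7e-09). FARP1, a guanine exchange factor for small GTPases, read 12.9, 13.7, 26.2 and 24.7 in R2 and 0.121, 0.702, 0.569 and 0.371 in R1 (4.37, adjusted p = 2.0e-08). GFRA1 was also detected in every R1 library, while RYR1 was near 0 in every R1 library. Control lay at 77.1 ± 5.34 (SD, n = 4) for GFRA1 and at 0.788 ± 0.247 (SD, n = 4) for RYR1. RYR1 was thus listed only because R2 libraries passed 1 CPM.

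Among the genes highest in R1 the leading one was G0S2, an inhibitor of the triglyceride lipase ATGL (chr1:209675412-209676390). It read 0.145, 0.186, 0 and 0.0918 in R2 and 81.9, 52.1, 67.2 and 52.9 in R1 (log2 difference -6.71, SE 0.18, adjusted p = 3.5e-12), with control at 0.137 ± 0.0931 (SD, n = 4). Its neighbour HSD11B1 (chr1:209686179-209734929), the enzyme that turns cortisone into active cortisol, was also higher in R1, at 4.51, 3.35, 6.27 and 6.01 in R2 and 48.5, 72.7, 25.6 and 22.3 in R1 (log2 difference -2.82, SE 0.31, adjusted p = 7.3e-06), and read 0.049 ± 0.0434 (SD, n = 4) in control. Both were highest in R1, and R2 held a low level of HSD11B1. TNFAIP8L2, a member of the TIPE family that restrains immune signalling, read 0.116, 0.0465, 0 and 0 in R2 and 33.2, 32.6, 37.1 and 27.3 in R1 (log2 difference -5.93, SE 0.15, adjusted p = 2.3e-12). KIF21B, a kinesin motor, read 0.174, 0.0931, 0.281 and 0.551 in R2 and 21, 32.9, 20.5 and 25.4 in R1 (log2 difference -5.04, SE 0.20, adjusted p = 2.7e-10). CORO2B, a coronin that binds actin, read 0.0291, 0.0465, 0.0312 and 0.0459 in R2 and 11.8, 16.4, 19.4 and 19.4 in R1 (log2 difference -4.98, SE 0.17, adjusted p = 5.3e-11). In control these 3 genes were also near 0, at 0.0426 ± 0.0325 (SD, n = 4), 0.253 ± 0.068 (SD, n = 4) and 0.266 ± 0.046 (SD, n = 4). G0S2 and these 3 genes were listed only because the R1 libraries passed 1 CPM, so their pattern partly reflects which genes were listed.

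SNHG14 and FAM101B were absent or nearly so from R2 and present at like levels in R1 and control. SNHG14, a long non-coding RNA of the imprinted region of chromosome 15 (chr15:24823608-25419462), read 0.0291, 0.0465, 0 and 0.0459 in R2 and 34.5, 30.1, 24.5 and 35 in R1, against 30.4 ± 3.88 (SD, n = 4) in control. Its 3 reads in all R2 libraries together against 3888 in R1 gave a ratio of 1159 (95% interval 396 to 5621, exact, counting error only). FAM101B (refilin B), a partner of filamin, had no read in any R2 library and 17.9, 16.2, 25.7 and 20.5 in R1, which makes it at least 729-fold higher in R1 against a floor of 3 reads over the R2 group. Control was at 17.4 ± 0.768 (SD, n = 4). Its relative FAM101A (refilin A) read 0.0872, 0.0465, 0 and 0.0918 in R2 and 22.4, 17, 16.2 and 12.4 in R1 (-4.95, adjusted p = 7.7e-11), with control also near 0, at 0.105 ± 0.0495 (SD, n = 4). Like G0S2, FAM101A was listed only because the R1 libraries passed 1 CPM. EGFL7, a secreted protein best known from endothelium, had 1 read in R2 and 1949 in R1, a ratio of 1743 (95% interval 312 to 68862), and values of 13.7, 14.5, 21 and 15.4 in R1. TGM2, the tissue transglutaminase that crosslinks proteins, read 4.56, 4.65, 4.59 and 4.27 in R2 and 149, 131, 136 and 137 in R1 (log2 difference -4.79, SE 0.12, adjusted p = 2.3e-12). VGF, a secreted neuropeptide precursor, read 1.28, 7.77, 1.09 and 1.61 in R2 and 104, 362, 84.3 and 57 in R1 (log2 difference -5.46, SE 0.66, adjusted p = 1.8e-05), so that R1 replicate 2 and R2 replicate 2 were each the highest of their group. NOS3, the endothelial nitric oxide synthase, and SEMA3F, a repulsive guidance factor, were higher in R1 with log2 differences of -4.46 and -4.36 (adjusted p = 3.4e-10 and 8.4e-09), with R1 values of 14.1 to 23.6 and 16.5 to 34.2 and all R2 values under 1.

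**Figure D2:**
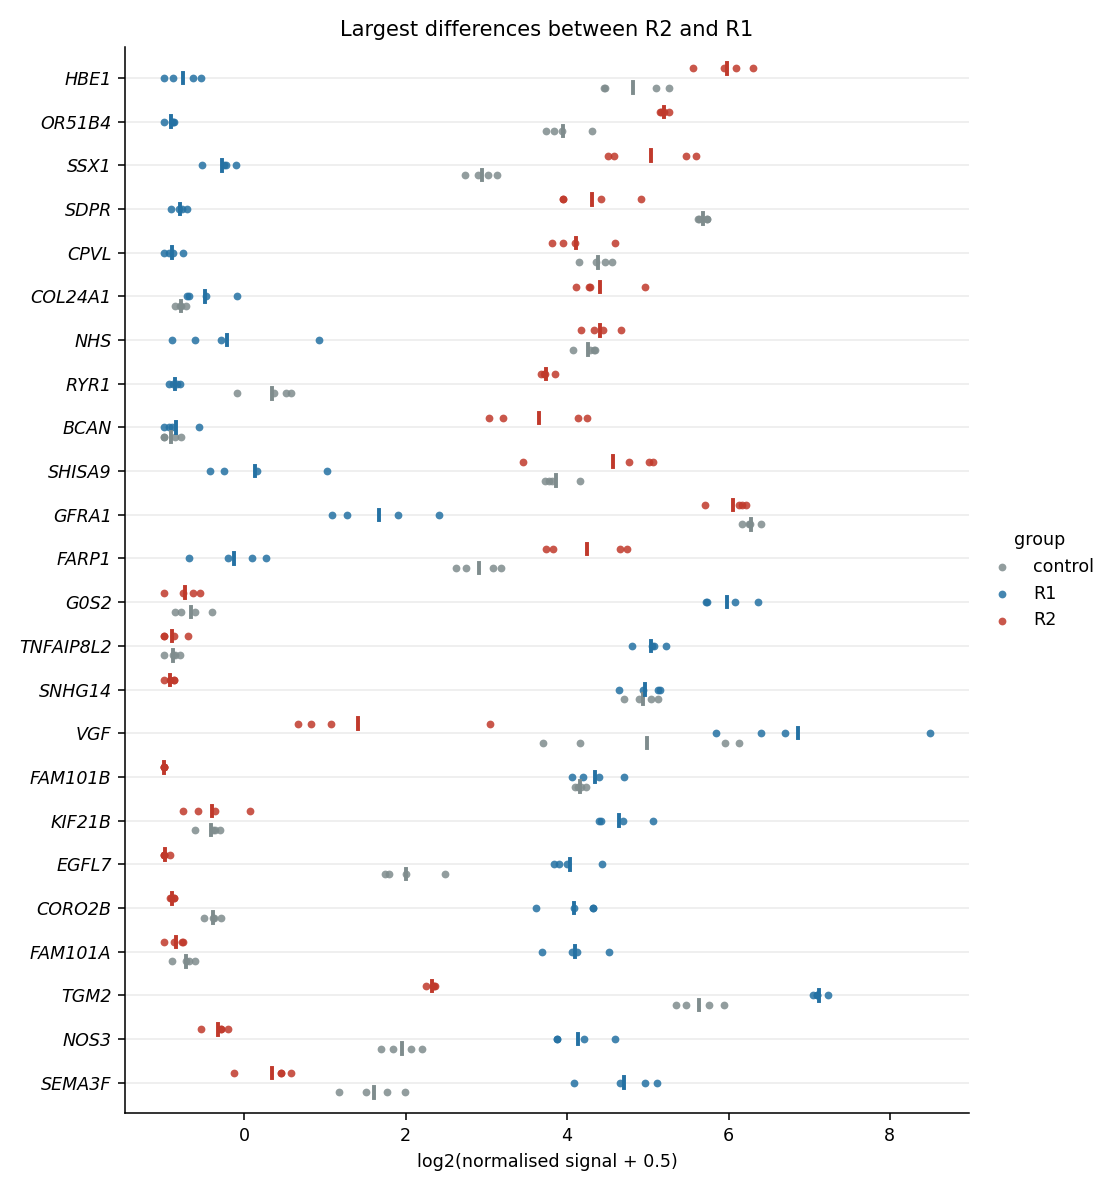
Values of the 12 genes with the largest excess in R2 and the 12 with the largest excess in R1 under the naming rule, as log2(normalised signal + 0.5), with a point for each of the 4 libraries of control (grey), R1 (blue) and R2 (red) and a bar at the group mean. The naming rule took only genes whose R2 and R1 points do not overlap. The control points, which the rule did not use, lie near R2 for some genes and near R1 for others.

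The RAS and RAF-MEK-ERK genes were unevenly different. Of 22 measured members of the list of RAS GTPases and cascade kinases, 9 were higher in R2, 5 were higher in R1 and 8 were not called (median 0.15). NRAS, the GTPase mutated in this line (chr1:114704469-114716771), read 129, 129, 139 and 181 in R2 and 951, 849, 1005 and 1109 in R1 (log2 difference -2.77, SE 0.13, adjusted p = 1.2e-09). The lowest R1 value was over 4 times the highest R2 value, and control was at 126 ± 12.6 (SD, n = 4). RRAS2, a RAS-like GTPase, was higher in R2, at 47.7, 42.1, 58 and 63.6 in R2 and 16.9, 17.9, 19 and 18.9 in R1 (log2 difference 1.497, SE 0.13, adjusted p = 7.7e-07). MAP2K1, which codes for MEK1, a target of PD0325901, read 35.8, 35.9, 37.7 and 35.3 in R2 and 91.8, 122, 91.2 and 94.6 in R1 (log2 difference -1.44, SE 0.11, adjusted p = 2.8e-07). The MEK2 gene MAP2K2 read 249, 253, 246 and 202 in R2 and 203, 225, 283 and 212 in R1 and was not called (0.05, adjusted p = 0.78), and BRAF was not called either (0.26, adjusted p = 0.14). KSR1, a scaffold of the cascade, was higher in R1 (-1.22, adjusted p = 1.5e-04). Among 18 regulators that load or unload RAS, 5 were higher in R2 and 4 higher in R1. The former were 3 when R1 replicate 1 or 3 or R2 replicate 1, 3 or 4 was left out, and also with only R1 and R2 libraries or with scaling without mitochondrial and ribosomal protein genes. SOS1, a guanine exchange factor that activates RAS, was higher in R2 (1.22, adjusted p = 2.0e-05), RASA1, a RAS GTPase-activating protein, was also higher there (0.56, adjusted p = 0.004), and SPRED1, an inhibitor of RAS-RAF signalling, was higher in R1 (-0.74, adjusted p = 2.6e-04).

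Most called members of the list of ERK feedback and early output genes were lower in R2. Of 28 measured, 15 were higher in R1 and 6 higher in R2, and the list median was -0.52, beside -0.00095 over all genes. Without R2 replicate 2 the counts were 12 and 6 and the median -0.33. The feedback phosphatases, which remove phosphate from ERK, were among them. DUSP4 read 1.54, 1.91, 12.4 and 12.5 in R2 and 57.3, 71.2, 109 and 97.3 in R1 (log2 difference -3.93, SE 0.51, adjusted p = 3.4e-05). DUSP5 read 104, 99.8, 113 and 111 in R2 and 443, 456, 735 and 579 in R1 (log2 difference -2.34, SE 0.28, adjusted p = 1.9e-05). DUSP6 read 53.7, 44.9, 49.5 and 54.9 in R2 and 137, 135, 114 and 110.1 in R1 (log2 difference -1.28, SE 0.17, adjusted p = 4.0e-05). R2 replicates 1 and 2 had the lowest DUSP4 values of all 8 libraries. SPRY4, a feedback inhibitor of receptor signalling to RAS, read 44.8, 31, 56 and 62 in R2 and 136, 159.9, 130.0 and 130.2 in R1 (log2 difference -1.55, SE 0.17, adjusted p = 8.9e-06). The immediate-early transcription factor FOS read 0.552, 0.698, 1.56 and 1.1 in R2 and 6.55, 13.4, 4.75 and 4.51 in R1 (-2.32, adjusted p = 4.6e-05). EGR1, another such factor, read 7.01, 8.1, 29.6 and 38.8 in R2 and 85, 175, 55 and 54.8 in R1 (-2.31, adjusted p = 0.0043), with R2 replicates 1 and 2 the lowest. The list also holds TFAP2C, an AP-2 transcription factor, which was higher in R2, at 5.52, 6.28, 14.8 and 16.3 in R2 and 0.194, 0.439, 0.114 and 0.0618 in R1 (log2 difference 3.88, SE 0.29, adjusted p = 2.4e-07). FOS, EGR1 and IER2 (-1.18, adjusted p = 1.1e-06) also belong to the 13 measured genes known to respond to tissue handling, of which these 3 and no others were called (without R1 replicate 2, 3 were higher in R1 and 3 higher in R2). The summed value of those 13 was 549.6 to 651 in R2, 691 to 961 in R1 and 743 on average in control, and its part in the result was not tested.

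The EGR1 promoter is shown because this gene moved with the ERK output list and is a textbook target of the serum response factor, which ERK signalling acts on. The window holds the 140 bases before the RefSeq start (GRCh38.p14, chr5:138465339-138465478, plus strand), and the capitals mark 2 matches to the CArG box, the site known for that factor (searched on both strands).
EGR1: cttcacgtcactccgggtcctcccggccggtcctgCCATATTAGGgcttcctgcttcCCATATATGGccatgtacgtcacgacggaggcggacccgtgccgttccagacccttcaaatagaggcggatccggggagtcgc
Of the 18 promoters of the list found in the RefSeq table, 1 held a CArG box within 300 bases, against 1.29% of 27305 promoters in the table. Among all 91 listed genes with a CArG box, 35 (38.5%) were higher in R1 and 14 (15.4%) higher in R2, beside 24.0% and 22.8% of all genes. A match is a run of letters and no evidence of binding.

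Receptors and ligands that feed the cascade were split. Of 20 receptor tyrosine kinases 5 were higher in R2 and 8 higher in R1, which became 6 and 6 without R1 replicate 2. AXL, a receptor linked to the undifferentiated state of melanoma, read 1502, 1311, 1525 and 1427 in R2 and 1024, 823, 686 and 768 in R1 (log2 difference 0.82, SE 0.13, adjusted p = 1.6e-04). RYK, a WNT-binding pseudokinase receptor, was higher in R2 (1.01, adjusted p = 8.8e-07). EPHA2, an ephrin receptor, was higher in R1 (-1.05, adjusted p = 3.3e-05). PDGFRB, a platelet-derived growth factor receptor, read 0.116, 0.279, 0.468 and 0.459 in R2 and 2.48, 9.08, 4.02 and 4.6 in R1 (log2 difference -2.63, SE 0.37, adjusted p = 6.2e-05). It was low throughout, with 35 reads in R2 and 564 in R1. Of 22 ligands 3 were higher in R2 and 9 higher in R1. AREG and HBEGF, ligands of the epidermal growth factor receptor, were both higher in R1. The gene of that receptor, EGFR, was higher in R2, with means of 164 in R2 and 103 in R1 (adjusted p = 0.0025). AREG read 3.2, 7.59, 5.12 and 3.99 in R2 and 35.3, 53.6, 37.5 and 31.4 in R1 (log2 difference -2.90, SE 0.28, adjusted p = 2.8e-06). HBEGF read 283, 212, 398 and 401 in R2 and 552, 503, 889 and 744 in R1 (log2 difference -1.07, SE 0.22, adjusted p = 0.0015). NRG1, the neuregulin that binds ERBB3 and ERBB4, was higher in R2, at 25, 22.9, 47.9 and 53.9 in R2 and 9.25, 12, 8.77 and 9.55 in R1 (log2 difference 1.78, SE 0.24, adjusted p = 4.8e-05). The PI3K, AKT and mTOR list leaned towards R2, with 12 of 34 higher there and 4 higher in R1, or 12 and 2 without R2 replicate 4. AKT1S1, the mTORC1 inhibitor PRAS40, read 249.9, 259, 257 and 290.5 in R2 and 134, 114, 131 and 105 in R1 (log2 difference 1.13, SE 0.10, adjusted p = 1.2e-06). RPS6KB1, the S6 kinase gene, was higher in R2 (0.53, adjusted p = 0.0066) with overlapping ranges, and PIK3CA was not called (-0.08, adjusted p = 0.64).

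The palbociclib targets differed in opposite directions. CDK4 read 215, 187, 215 and 179 in R2 and 449.9, 341, 529 and 438 in R1 (log2 difference -1.13, SE 0.13, adjusted p = 1.1e-05), with control at 286 ± 25.3 (SD, n = 4). CDK6 read 92.7, 83.2, 108 and 118 in R2 and 65.7, 70.6, 40.9 and 56.3 in R1 (log2 difference 0.79, SE 0.17, adjusted p = 0.0018), with control at 57.2 ± 9.17 (SD, n = 4). All 4 libraries of R1 had more CDK4, and all 4 of R2 more CDK6, than any library of the other group. CCND1, the cyclin D1 partner of both kinases, read 391, 312, 420.2 and 408 in R2 and 629, 382, 591 and 579 in R1 (log2 difference -0.49, SE 0.18, adjusted p = 0.035). Its ranges overlapped, and its call was lost when any of R1 replicates 1, 3 and 4 or R2 replicates 1 and 2 was left out (limma adjusted p = 0.057 to 0.098). CDKN1A, the p21 inhibitor of cyclin-dependent kinases and a p53 target, read 3.55, 5.49, 13.4 and 14.5 in R2 and 41.6, 76.3, 65.9 and 60 in R1 (log2 difference -2.83, SE 0.36, adjusted p = 2.8e-05). RB1, the retinoblastoma gene (0.09, adjusted p = 0.6), and CDKN2A, the p16 gene (0.13, adjusted p = 0.44), were not called. Over the 24 measured cyclin D-CDK4/6-RB components, 5 were higher in R2 and 7 higher in R1.

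MKI67, the proliferation antigen Ki-67, was higher in R2, at 566, 491, 669 and 666 in R2 and 362, 212, 243 and 311 in R1 (log2 difference 1.10, SE 0.18, adjusted p = 2.6e-04). In the list of 40 mitosis and G2/M genes, 12 were higher in R2 and 1 higher in R1 (median 0.28), but without R1 replicate 2 these counts were 12 and 9 and the median was 0.04. Likewise 12 of 45 DNA replication genes were higher in R2 and 1 higher in R1, against 8 and 7 without that library. R1 replicate 2 had the lowest value of both lists, a summed 2804 for mitosis genes, against 5627 to 6013 in the other R1 libraries and 5631 to 6856 in R2. The 12 of 40 and 12 of 45 higher in R2 were not far above the 22.8% of all genes. In either direction 32.5% of the mitosis list and 28.9% of the replication list were called, below the 46.8% of all genes. PLK1, a mitotic kinase, read 226, 201, 269 and 266 in R2 and 123, 59.1, 155 and 138 in R1 (log2 difference 1.09, SE 0.23, adjusted p = 0.0015). HMMR, a spindle and hyaluronan-binding protein, read 88.6, 62.6, 94.2 and 104 in R2 and 65.8, 17.6, 35.4 and 51.3 in R1 (log2 difference 1.16, SE 0.30, adjusted p = 0.0056), with overlapping ranges. ANLN, the cytokinesis scaffold anillin, was higher in R2 in all libraries (1.06, adjusted p = 1.8e-04), as were MCM5 (0.86, adjusted p = 0.0031), a subunit of the replicative helicase, and CHAF1B (1.14, adjusted p = 6.5e-04), a histone chaperone of replication. DUT, which removes dUTP, was the replication gene higher in R1 (-0.87, adjusted p = 0.0019).

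**Figure D3:**
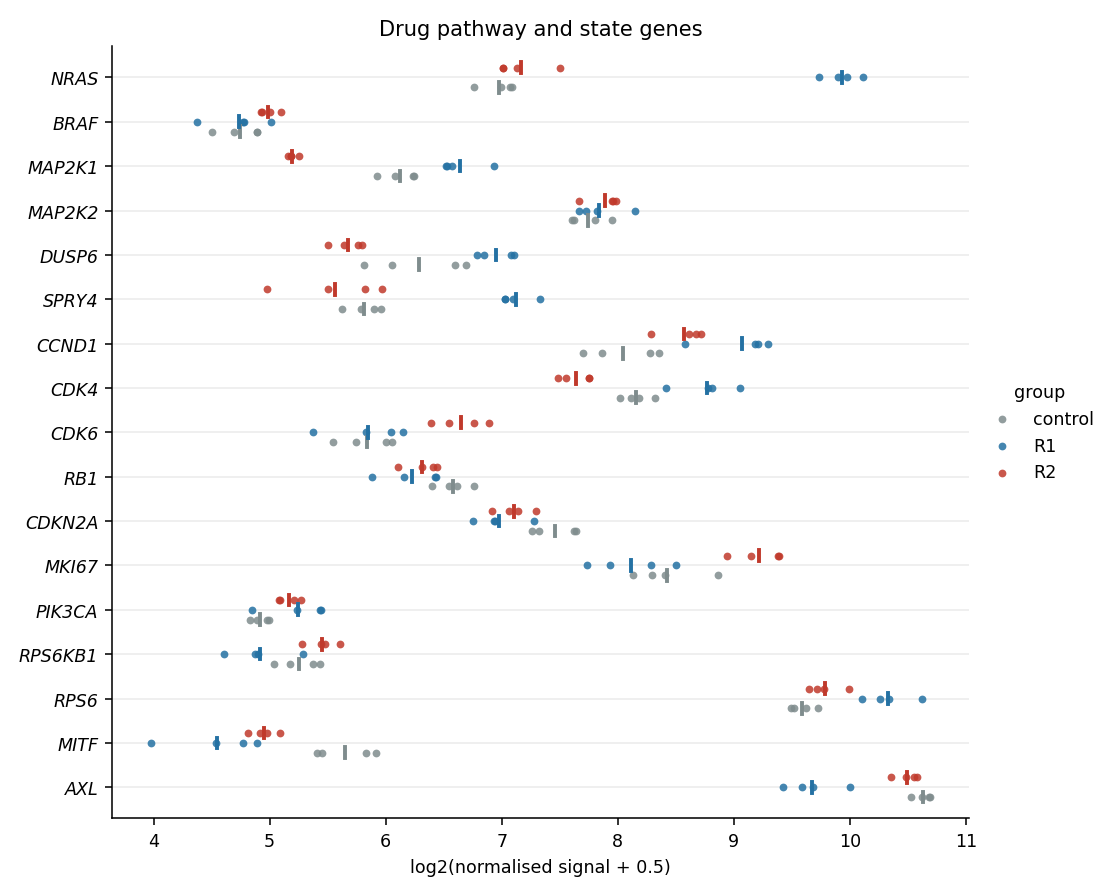
Values of drug pathway and state genes that were fixed by name, as log2(normalised signal + 0.5), with a point for each of the 4 libraries of control (grey), R1 (blue) and R2 (red) and a bar at the group mean. NRAS, MAP2K1, CDK4, DUSP6 and SPRY4 lie higher in R1, CDK6, MKI67 and AXL lie higher in R2, and RB1, CDKN2A, MAP2K2, BRAF, PIK3CA and MITF were not called.

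Most ribosomal protein messages were higher in R1. Of 79 measured cytosolic ribosomal proteins, 60 were higher in R1 and 2, RPL28 and RPL27A, higher in R2 (median -0.78), and their summed share of reads was 9.59% to 11.8% in R1 and 5.57% to 6.80% in R2. RPS21 read 228, 214, 199 and 167 in R2 and 649, 757, 914 and 675 in R1 (log2 difference -1.89, SE 0.14, adjusted p = 1.6e-07). RPL34 read 160.0, 153, 162 and 154 in R2 and 477, 583, 749 and 529 in R1 (log2 difference -1.87, SE 0.14, adjusted p = 2.0e-07). RPL31 read 358, 323, 319 and 307 in R2 and 994, 1207, 1423 and 1081 in R1 (log2 difference -1.84, SE 0.13, adjusted p = 9.3e-08). In all of them the 4 R1 values were above the 4 R2 values. RPS6, the ribosomal protein phosphorylated by S6 kinase, read 1018, 874, 839.6 and 801 in R2 and 1101, 1291, 1569 and 1223 in R1 (log2 difference -0.55, SE 0.13, adjusted p = 0.003). Control shared the lower level, with 5.61% to 6.35% of reads in these genes. GAS5, SNHG6 and SNHG8, host genes of small nucleolar RNAs, were also higher in R1 (log2 differences -1.45, -1.49 and -1.45, adjusted p = 1.4e-07, 6.3e-06 and 4.9e-06), as were NACA (-1.32, adjusted p = 1.2e-06), a nascent chain chaperone, and the initiation factor EIF1 (-1.11, adjusted p = 2.7e-05). PABPC1, the poly(A)-binding protein (0.90, adjusted p = 2.0e-04), and EIF4G2, an initiation factor of the eIF4G family (1.10, adjusted p = 1.6e-04), were higher in R2. Of 51 translation factors 12 were higher in R2 and 14 higher in R1 (median 0.04), against 10 and 9 without R1 replicate 4 and 7 and 9 without R2 replicate 4. Ribosomal protein genes have many processed copies, and how reads shared with them were counted is not given in the sources used here.

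Ribosomal protein messages are known to start with a C followed by a run of pyrimidines, the TOP element through which mTOR signalling controls their translation. The windows below run from 60 bases before to 20 after the RefSeq start (GRCh38.p14) of the 3 ribosomal protein genes lowest in R2 and of RPL28, 1 of the 2 higher there, both named after their values were seen. They lie at chr20:62387043-62387122, plus strand and at chr4:108620516-108620595, plus strand for RPS21 and RPL34, and at chr2:101002229-101002308, plus strand and chr19:55385872-55385951, plus strand for RPL31 and RPL28. The capitals mark a C at the start and the pyrimidines that follow it.
RPS21: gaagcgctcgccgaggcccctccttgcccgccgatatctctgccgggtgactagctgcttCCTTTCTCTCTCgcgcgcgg
RPL34: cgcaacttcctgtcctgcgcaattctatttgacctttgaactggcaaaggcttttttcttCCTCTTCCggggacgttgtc
RPL31: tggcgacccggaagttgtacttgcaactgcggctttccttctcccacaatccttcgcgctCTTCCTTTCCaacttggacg
RPL28: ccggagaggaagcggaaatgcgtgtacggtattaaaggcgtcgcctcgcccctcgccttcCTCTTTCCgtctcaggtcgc
A C within 3 bases of the start followed by at least 4 pyrimidines was found in 48 of the 63 ribosomal protein promoters in the table (76.2%) and in 13.1% of all 27305. The median difference was -0.85 for the 48 with it and -0.86 for the other 15. Of 1324 other listed genes with such a start, 360 (27.2%) were higher in R1 and 295 (22.3%) higher in R2, near the 24.0% and 22.8% of all genes.

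Called nuclear genes of the respiratory chain were mostly higher in R1, and its mitochondrial genes were higher in R2. Of 75 nuclear-coded subunits and assembly factors 34 were higher in R1 and 9 higher in R2 (median -0.29, or -0.17 with 33 and 13 without R1 replicate 3). NDUFA11 and NDUFB2 of complex I had log2 differences of -1.68 and -1.52 (adjusted p = 6.3e-06 and 5.1e-06). COX6A1 of cytochrome c oxidase read 30, 34.6, 34.4 and 25 in R2 and 89.1, 72.7, 131 and 94.3 in R1 (log2 difference -1.60, SE 0.16, adjusted p = 2.8e-06). All 13 protein-coding transcripts of the mitochondrial genome were higher in R2 (median 1.70), with MT-ND4 at 16638, 14319.9, 7426 and 17663 in R2 and 4433, 2937, 3079 and 3501 in R1 (log2 difference 1.95, SE 0.30, adjusted p = 1.2e-04) and MT-ATP6 at 7872, 7403, 2556 and 5995 in R2 and 1969.5, 1001, 1543 and 1669 in R1 (log2 difference 1.86, SE 0.35, adjusted p = 6.0e-04). R2 replicate 3 lay between the other R2 libraries and R1, and without it the median was 1.98, with 13 of 13 still called. Because these transcripts take a large and unequal share of reads, all genes were also scaled without them and without the ribosomal protein genes. That moved the median of all genes to -0.02 and left 12 of 13 mitochondrial transcripts higher in R2 and 63 of 79 ribosomal protein genes higher in R1. PPARGC1A and PPARGC1B, coactivators that promote mitochondrial gene expression, had log2 differences of 0.99 and 1.07 (adjusted p = 0.0024 and 0.0018), higher in R2, while ESRRA, a nuclear receptor they act with, was higher in R1 (-0.81, adjusted p = 4.6e-05).

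Short transcripts leaned towards R1 in general. When 11595 genes were ordered by the median length of their GENCODE 29 coding transcripts, the 2319 shortest (207 to 898 bases) had 30.8% of genes higher in R1 and 18.9% higher in R2, and the 2319 longest (3551 bases and more) had 17.4% and 30.7%. Of the 79 ribosomal protein genes 66 lay among the shortest, as did 58 of the 75 respiratory genes. The shortest genes without ribosomal proteins had a median of -0.08, against -0.78 for those genes and -0.29 for the respiratory list. The part of transcript length in these results was not tested further. Proteasome subunits, 10 of which lay among the shortest genes, had 15 of 39 higher in R1 and 1 higher in R2, with PSMB5, a catalytic subunit, at -0.95 (adjusted p = 4.8e-05). Of 75 mitochondrial ribosomal proteins 28 lay among the shortest genes, and 20 were higher in R1 and 8 higher in R2 (median -0.10). That median ran from -0.16 to 0.0018 across the 21 processing alternatives. Lists of nuclear regulators had the opposite lean. Of 58 splicing factors 23 were higher in R2 and 7 higher in R1 (median 0.24), or 22 and 10 with a median of 0.11 without R1 replicate 2. Those higher in R2 included SF3B4 (1.32, adjusted p = 1.9e-05) and SRRM1 (1.10, adjusted p = 2.2e-06). SNRPE, a short Sm protein gene, was higher in R1 (-1.67, adjusted p = 7.3e-06). Of the 58 splicing factors 16 lay among the shortest genes and 5 among the longest. Of 56 chromatin regulators 27 were higher in R2 and 5 higher in R1 (median 0.34), including CREBBP (0.91, adjusted p = 1.4e-04) and KMT2A (0.85, adjusted p = 0.0033), a histone acetyltransferase and a histone methyltransferase. Of these 56 genes 20 lay among the longest and 16 among the shortest.

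Genes of melanoma state did not move as a block. Of 17 measured melanocyte lineage genes 8 were higher in R1 and 3 higher in R2 (median -0.35, or -0.13 with 7 and 5 without R1 replicate 2). Without R2 replicate 2 the counts were 5 and 2, and without R2 replicate 4 they were 6 and 1. MITF, the master regulator of that lineage, read 31, 27.6, 29.7 and 33.5 in R2 and 26.9, 29.1, 15.3 and 22.7 in R1 and was not called (0.40, adjusted p = 0.079), though it was without R1 replicate 2 (limma adjusted p = 0.028). PMEL, a melanosome matrix protein, was higher in R1, at 7.24, 12.5, 8.74 and 6.75 in R2 and 22.4, 35.7, 27.2 and 23 in R1 (log2 difference -1.58, SE 0.21, adjusted p = 3.6e-05). TFAP2A, an AP-2 factor of the neural crest, was higher in R2, at 151, 239, 98.7 and 115 in R2 and 41.8, 50.5, 49.1 and 50 in R1 (log2 difference 1.57, SE 0.20, adjusted p = 3.0e-05). With TFAP2C and GFRA1 it belongs to the neural crest list, in which 9 of 18 were higher in R2 and 5 higher in R1 (median 0.51, or 0.33 with 7 and 4 without R2 replicate 2), against 8 and 2 without R2 replicate 3 and 7 and 3 without R1 replicate 4. Of 28 undifferentiated and mesenchymal melanoma genes 9 were higher in R2 and 6 higher in R1 (median 0.05). THBS1, the matrix protein thrombospondin 1, read 521, 265, 951 and 819 in R2 and 238, 151, 152 and 167 in R1 (log2 difference 1.72, SE 0.31, adjusted p = 4.8e-04). TWIST2, a mesenchymal transcription factor, was higher in R1 (-1.58, adjusted p = 1.4e-04). CTGF, a target of the YAP/TEAD coactivators, was lower in R2, at 174, 121, 221 and 234 in R2 and 1040.3, 471, 1234 and 1129 in R1 (log2 difference -2.32, SE 0.31, adjusted p = 3.8e-05), although TEAD1, which codes for one of the TEAD factors, was higher there (1.35, adjusted p = 1.2e-05). Over the YAP/TEAD list 12 of 32 were higher in R2 and 7 higher in R1.

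Other developmental pathways differed in single members. NOTCH1, a receptor, read 1.1, 2.09, 2.75 and 2.66 in R2 and 22.9, 17.6, 15.8 and 20.4 in R1 (log2 difference -2.93, SE 0.21, adjusted p = 1.6e-07). Its ligand gene JAG1 read 0.233, 0.419, 0.343 and 0.413 in R2 and 5.1, 6.1, 4.52 and 5.81 in R1 (log2 difference -2.78, SE 0.19, adjusted p = 9.3e-08). Both were also low in control, at 0.899 ± 0.181 (SD, n = 4) and 0.618 ± 0.318 (SD, n = 4). Over 13 Notch and Hedgehog genes 3 were higher in R2, among them GLI3 (1.22, adjusted p = 3.7e-05), a Hedgehog transcription factor, and 5 higher in R1. These counts were 5 and 3 without R1 replicate 2 and 2 and 3 without R2 replicate 3 or 4. WNT5B, a WNT ligand, was higher in R2, at 44.5, 17.4, 61.8 and 49.4 in R2 and 3.62, 2.98, 7.29 and 4.73 in R1 (log2 difference 3.02, SE 0.32, adjusted p = 5.2e-06). TGFB2 (1.46, adjusted p = 8.5e-04), a transforming growth factor ligand, FSTL1 (1.68, adjusted p = 1.5e-05), a secreted glycoprotein, and TCF7L2 (1.31, adjusted p = 1.2e-05), a WNT pathway transcription factor, were higher there too, among 13 of 41 TGF-beta, BMP and WNT genes, with 5 higher in R1 (2 without R1 replicate 3 or 4, 3 without R2 replicate 1). Of 63 measured transcription factors of the KLF, RUNX, ETS, GATA and homeobox families, 15 were higher in R2 and 13 higher in R1. RUNX3 read 0, 0.0931, 0.0624 and 0.229 in R2 and 6.43, 8.47, 7.52 and 8.84 in R1 (log2 difference -3.81, SE 0.17, adjusted p = 5.8e-10), close to absent in R2. KLF11, a factor linked to TGF-beta signalling, read 17.5, 12.9, 20.8 and 21.1 in R2 and 4.2, 3.12, 2.77 and 4.39 in R1 (log2 difference 2.17, SE 0.18, adjusted p = 7.1e-07), with control at 1.21 ± 0.157 (SD, n = 4). HOXC10, a posterior homeobox gene, was higher in R1 (-2.58, adjusted p = 9.6e-05) and HOXD13 higher in R2 (1.34, adjusted p = 3.1e-05). A pair of receptors coupled to G proteins stood at opposite ends. GPR4, a sensor of acid, read 0.378, 0.186, 1.22 and 1.42 in R2 and 9.25, 20.3, 11.3 and 11.4 in R1 (log2 difference -3.45, SE 0.31, adjusted p = 1.1e-06). LPAR1, a receptor for lysophosphatidic acid, read 5.79, 5.4, 4.37 and 5.92 in R2 and 0.34, 0.439, 0.342 and 0.216 in R1 (log2 difference 2.81, SE 0.15, adjusted p = 7.8e-09).

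Most called antigen presentation genes were higher in R1. MHC class II molecules show peptides to helper T cells, and melanoma cells can make them. Of 17 measured class II genes and regulators 11 were higher in R1 and 2 higher in R2 (median -1.44, or -1.05 without R1 replicate 2). HLA-DRA read 20.1, 15.7, 24.6 and 27.8 in R2 and 88.4, 127, 127 and 101 in R1 (log2 difference -2.32, SE 0.21, adjusted p = 1.1e-06). HLA-DRB1 read 21.3, 18.9, 36.9 and 28.6 in R2 and 135, 200.4, 195 and 137 in R1 (log2 difference -2.66, SE 0.25, adjusted p = 1.8e-06). HLA-DPB1 read 6.02, 4.65, 10.4 and 8.95 in R2 and 27.3, 46.9, 43.6 and 32.7 in R1 (log2 difference -2.28, SE 0.28, adjusted p = 2.1e-05). Every R1 library lay above every R2 library, and control was lowest, at 3.9 ± 1.12 (SD, n = 4), 2.51 ± 1.14 (SD, n = 4) and 1.53 ± 0.673 (SD, n = 4). HLA-DRB1 and HLA-DRB5 (-2.55, adjusted p = 1.9e-05) are near-identical copies, so reads may have been split between them. CTSS, the protease that trims the class II invariant chain, was higher in R1 with overlapping ranges (-1.44, adjusted p = 0.017), and its call was lost without R2 replicate 1 (limma adjusted p = 0.057). For class I, which shows peptides to killer T cells, 11 of 20 genes were higher in R1 and 1 higher in R2 (median -0.41), or 10 and 3 without R1 replicate 2. TAP1, a peptide transporter, read 15.4, 16.2, 19.6 and 17.5 in R2 and 35.9, 55, 47.8 and 40.2 in R1 (log2 difference -1.34, SE 0.14, adjusted p = 5.8e-06). PSMB8, an immunoproteasome subunit, and NLRC5, the class I transactivator, were higher in R1, with log2 differences of -1.10 and -1.001 (adjusted p = 2.0e-05 and 6.2e-05).

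Class II promoters are known for a shared module that ends in a Y box, the inverted CCAAT element bound by NF-Y. Windows of the 140 bases before the RefSeq start (GRCh38.p14) are shown for 3 class II genes that were higher in R1, HLA-DRB1 (chr6:32589849-32589988, minus strand), HLA-DPB1 (chr6:33075850-33075989, plus strand) and HLA-DMA (chr6:32953098-32953237, minus strand). The capitals mark GATTGG, or CCAATC where it lies on the other strand. In HLA-DPB1 the match reads CCAATC, the opposite orientation to the inverted element. The HLA-DPB1 window also holds cattgg, which was left unmarked because only GATTGG was searched. Whether any marked match is a Y box was not tested.
HLA-DRB1: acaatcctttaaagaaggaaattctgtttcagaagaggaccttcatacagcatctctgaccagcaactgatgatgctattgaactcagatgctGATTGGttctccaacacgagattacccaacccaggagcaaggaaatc
HLA-DPB1: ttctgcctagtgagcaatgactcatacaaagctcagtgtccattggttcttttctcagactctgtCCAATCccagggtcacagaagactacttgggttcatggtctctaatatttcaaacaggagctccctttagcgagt
HLA-DMA: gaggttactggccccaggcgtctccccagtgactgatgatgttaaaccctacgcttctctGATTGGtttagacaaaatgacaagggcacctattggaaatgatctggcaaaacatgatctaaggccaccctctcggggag
GATTGG, searched on both strands of 300 bases, was present in 8 of the 13 promoters of the list found in the table (61.5%), 6 of genes higher in R1 and 2 of the regulators RFX5 and NFYA, which were higher in R2. HLA-DMA, RFX5 and NFYA were named after their values were seen. It was present in 15.7% of all 27305 promoters and in 20.1% of those of listed genes. Of 1863 listed genes outside the list with a match, 22.5% were higher in R1 and 22.8% higher in R2.

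Other immune genes were mixed. Of 48 interferon response genes 12 were higher in R1 and 7 higher in R2, the former 10 without R1 replicate 2 or R2 replicate 4. ISG20, an interferon-induced exonuclease, and IRF1, an interferon regulatory factor, had log2 differences of -2.28 and -1.16 (adjusted p = 2.7e-05 and 4.8e-04), higher in R1, whereas IRF7, the factor that drives type I interferon genes, was higher in R2, at 7.94, 17.6, 12 and 9.09 in R2 and 3.4, 4.48, 3.76 and 3.03 in R1 (log2 difference 1.495, SE 0.20, adjusted p = 4.6e-05). Of 18 checkpoint and surface immune genes 10 were higher in R1 and 2 higher in R2. LGALS3, the lectin galectin-3, read 2.04, 3.21, 3.4 and 2.71 in R2 and 35.2, 54.4, 41.2 and 33.1 in R1 (log2 difference -3.63, SE 0.21, adjusted p = 1.6e-08). CD276, the B7-H3 surface protein, read 0.785, 2.28, 1.47 and 1.47 in R2 and 17.5, 28.3, 19.1 and 20.1 in R1 (log2 difference -3.47, SE 0.26, adjusted p = 1.9e-07). In the NF-kB and secretion list 7 of 30 were higher in R1 and 4 higher in R2 (median -0.20), and without R1 replicate 2 the counts were 3 and 8 and the median 0.22 (4 and 6, median 0.06, without R2 replicate 2, and 5 and 6, median 0.16, without R2 replicate 1). TNFAIP2, a gene induced by tumour necrosis factor, was higher in R1, at 0.494, 1.72, 1.19 and 0.78 in R2 and 26.2, 25.1, 33.9 and 33.1 in R1 (log2 difference -4.34, SE 0.21, adjusted p = 2.1e-09). IL6, an inflammatory cytokine, was higher in R2, at 24, 35.8, 65.1 and 84.5 in R2 and 5.46, 14.1, 5.16 and 5.22 in R1 (log2 difference 2.70, SE 0.40, adjusted p = 9.4e-05). IL1B, another inflammatory cytokine, split the R2 libraries, at 3.78, 2.56, 73 and 78.6 in R2 and 76.5, 221, 61.8 and 53.4 in R1, and its call (-2.39, adjusted p = 0.04) was lost in 8 of 21 other settings, edgeR's quasi-likelihood test among them (-1.38, adjusted p = 0.18).

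Of 27 p53 targets 11 were higher in R1 and 4 higher in R2 (median -0.37), the latter 2 without R2 replicate 4. Among the former were PHLDA3, an inhibitor of AKT (-1.65, adjusted p = 1.9e-05), and PLK3, a stress-responsive kinase (-1.13, adjusted p = 2.7e-05). Of 30 BCL2 family and death regulators 8 were higher in R1 and 3 higher in R2, the latter 1 without R2 replicate 3 or 4. The survival genes BCL2 and BCL2L1 were higher in R1. BCL2 read 2.65, 2.56, 6.74 and 6.66 in R2 and 15.5, 12.5, 9.68 and 13.5 in R1 (log2 difference -1.47, SE 0.27, adjusted p = 6.2e-04). BCL2L1 read 127, 103, 104 and 103 in R2 and 191, 195, 264 and 221 in R1 (log2 difference -0.98, SE 0.12, adjusted p = 2.0e-05). BCL2A1, a survival gene driven by MITF, was also higher in R1 (-1.53, adjusted p = 8.9e-04). Of 36 genes of the ATF4 response and amino acid synthesis 15 were higher in R1 and 5 higher in R2 (median -0.34). DDIT3, the stress factor CHOP, read 3.2, 9.31, 3.65 and 3.35 in R2 and 19.6, 90.8, 22.8 and 18.8 in R1 (log2 difference -2.62, SE 0.50, adjusted p = 7.1e-04), with R1 replicate 2 far above the rest. The ER chaperone list had 6 of 27 higher in R1 and 1 higher in R2 (median -0.30), and 6 and 5 with a median of 0.02 without R1 replicate 2. HSP90B1, the ER chaperone GRP94, read 418, 479.9, 474 and 490.3 in R2 and 610.3, 3010.3, 792 and 729 in R1 (log2 difference -1.13, SE 0.37, adjusted p = 0.022), with R1 replicate 2 far above the rest, and its call was lost without R2 replicate 1 (limma adjusted p = 0.0503). Hypoxia genes depended on R1 replicate 2 too, with 6 of 29 higher in R1 and 4 higher in R2 (median -0.35) against 3 and 4 (median -0.03) without it. The 6 became 2 or 3 when R1 replicate 3 or R2 replicate 1, 3 or 4 was left out. CA9, the carbonic anhydrase used as a hypoxia marker, read 1.95, 7.35, 1.06 and 0.78 in R2 and 10.5, 127, 20.7 and 13.3 in R1 (log2 difference -3.34, SE 1.16, adjusted p = 0.029). Its call was lost without R1 replicate 2 or 3 or without R2 replicate 1, 3 or 4 (limma adjusted p = 0.052 to 0.082). Among 40 NRF2 and antioxidant genes 12 were higher in R1 and 6 higher in R2. TXN, thioredoxin, was among those higher in R1 (-1.06, adjusted p = 5.8e-05).

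Genes of sugar and fat metabolism differed in both directions. LDHA, which makes lactate from pyruvate, was higher in R2, at 1937, 2464, 2149 and 2199 in R2 and 779, 1219, 1132 and 1025 in R1 (log2 difference 1.09, SE 0.20, adjusted p = 5.8e-04). ENO3, a glycolytic enolase, was higher in R1 (-1.19, adjusted p = 2.8e-04). Of 29 glycolysis genes 5 were higher in R2 and 6 higher in R1. In the fatty acid and lipid droplet list 11 of 41 were higher in R2 and 12 higher in R1. Next to G0S2, FABP3, a fatty acid carrier, read 0.0291, 0.605, 0.218 and 0.0918 in R2 and 1.84, 12.4, 5.05 and 3.27 in R1 (log2 difference -2.83, SE 0.53, adjusted p = 6.1e-04). DGAT2, the last enzyme of triglyceride synthesis, read 1.77, 1.91, 5.83 and 4.82 in R2 and 9.61, 17.2, 8.73 and 7.72 in R1 (log2 difference -1.55, SE 0.33, adjusted p = 0.0017). H6PD, which supplies the cofactor of HSD11B1 in the endoplasmic reticulum, was higher in R1 as well, at 20.8, 21.1, 17.9 and 15.9 in R2 and 37.8, 68.4, 31.5 and 34.7 in R1 (log2 difference -1.10, SE 0.23, adjusted p = 0.0014). AKR1C3, an aldo-keto reductase of steroid metabolism, was higher in R1 (-2.04, adjusted p = 8.5e-04). Over 20 glucocorticoid and steroid genes 7 were higher in R1 and 2 higher in R2 (4 without R1 replicate 2). Of 27 cholesterol genes 2 were called in each direction, but 7 were higher in R1 without R1 replicate 1 and none was without R2 replicate 1, 2 or 4. SC5D, a late enzyme of the pathway, read 13.4, 17.3, 21.2 and 28.6 in R2 and 5.1, 9.26, 4.18 and 6.27 in R1 (log2 difference 1.62, SE 0.26, adjusted p = 2.0e-04).

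Matrix genes differed strongly in part of their members. Of 36 laminins, fibulins and other matrix glycoproteins 16 were higher in R1 and 7 higher in R2 (median -0.45), or 14 and 9 with a median of -0.26 without R1 replicate 2. LAMA4, a laminin chain of vessel walls, read 2.15, 3.91, 5.62 and 4.5 in R2 and 64.2, 129.6, 62.7 and 62.8 in R1 (log2 difference -4.13, SE 0.27, adjusted p = 5.8e-08), with control at 0.564 ± 0.198 (SD, n = 4). LAMB3, a chain of laminin-332, read 11.7, 9.54, 16.5 and 12.1 in R2 and 135, 480.5, 135 and 126 in R1 (log2 difference -3.84, SE 0.37, adjusted p = 2.2e-06), with control at 3.03 ± 1.17 (SD, n = 4). GPC6, a glypican, was higher in R2, at 7.73, 10.8, 8.46 and 9.68 in R2 and 0.971, 0.965, 0.645 and 0.865 in R1 (log2 difference 2.83, SE 0.15, adjusted p = 7.6e-09). IGFBP4, a binding protein of insulin-like growth factors, was higher in R1 (-2.54, adjusted p = 1.8e-08). Of 30 collagens and their enzymes 11 were higher in R1 and 4 higher in R2 (median -0.34, or -0.10 without R1 replicate 2). The 4 became 1 or 2 when any of R1 replicates 1, 3 and 4 or R2 replicates 1, 3 and 4 was left out. COL4A1 (chr13:110148963-110307157) and COL4A2 (chr13:110307284-110513209), paired basement membrane collagen genes, were both higher in R1. COL4A1 read 0.174, 0.0465, 2.93 and 2.62 in R2 and 8.03, 16.4, 17 and 20.7 in R1 (-3.43, adjusted p = 1.0e-04). COL4A2 read 2.97, 0.698, 21.1 and 17.7 in R2 and 42.9, 65.9, 77.7 and 81.6 in R1 (-3.37, adjusted p = 0.001). Within R2, replicates 1 and 2 were lower than replicates 3 and 4 for both genes. COL1A1, a fibrillar collagen fixed as a marker, was higher in R2, at means of 216 against 105 in R1 (adjusted p = 0.024). Of 31 matrix proteases and inhibitors 14 were higher in R1 and 4 higher in R2 (median -0.37), or 13 and 5 with a median of -0.25 without R1 replicate 2. The plasminogen activator PLAU read 431, 511, 528 and 439.5 in R2 and 2165, 1176, 2716 and 2331 in R1 (log2 difference -2.07, SE 0.21, adjusted p = 3.3e-06). Its receptor gene PLAUR read 61, 35.9, 83.2 and 79.3 in R2 and 138, 145, 183 and 154 in R1 (log2 difference -1.31, SE 0.21, adjusted p = 1.9e-04). MMP1, a collagenase, was higher in R1 with overlapping ranges, at 41.3, 17.2, 139 and 129 in R2 and 64.5, 445, 482 and 470.3 in R1 (log2 difference -2.24, SE 0.66, adjusted p = 0.013). SERPINB2, an inhibitor of plasminogen activators, was higher in R2 with overlapping ranges (2.52, adjusted p = 0.0029). Integrins and other adhesion molecules were even, with 10 of 33 in each direction. ITGB4, the partner chain in the laminin-332 receptor, read 2.21, 7.31, 1.31 and 1.65 in R2 and 22.8, 34, 27.6 and 28 in R1 (log2 difference -3.23, SE 0.46, adjusted p = 6.7e-05). CADM1, a cell adhesion molecule, read 30, 38, 19.9 and 21.8 in R2 and 2.6, 3.69, 1.33 and 1.45 in R1 (log2 difference 3.37, SE 0.27, adjusted p = 3.7e-07). MYH9, the heavy chain of non-muscle myosin IIA, was higher in R2, at 7209, 10235, 6467 and 6052 in R2 and 3538, 3831, 3262 and 3383 in R1 (log2 difference 1.07, SE 0.19, adjusted p = 4.1e-04).

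**Figure D4:**
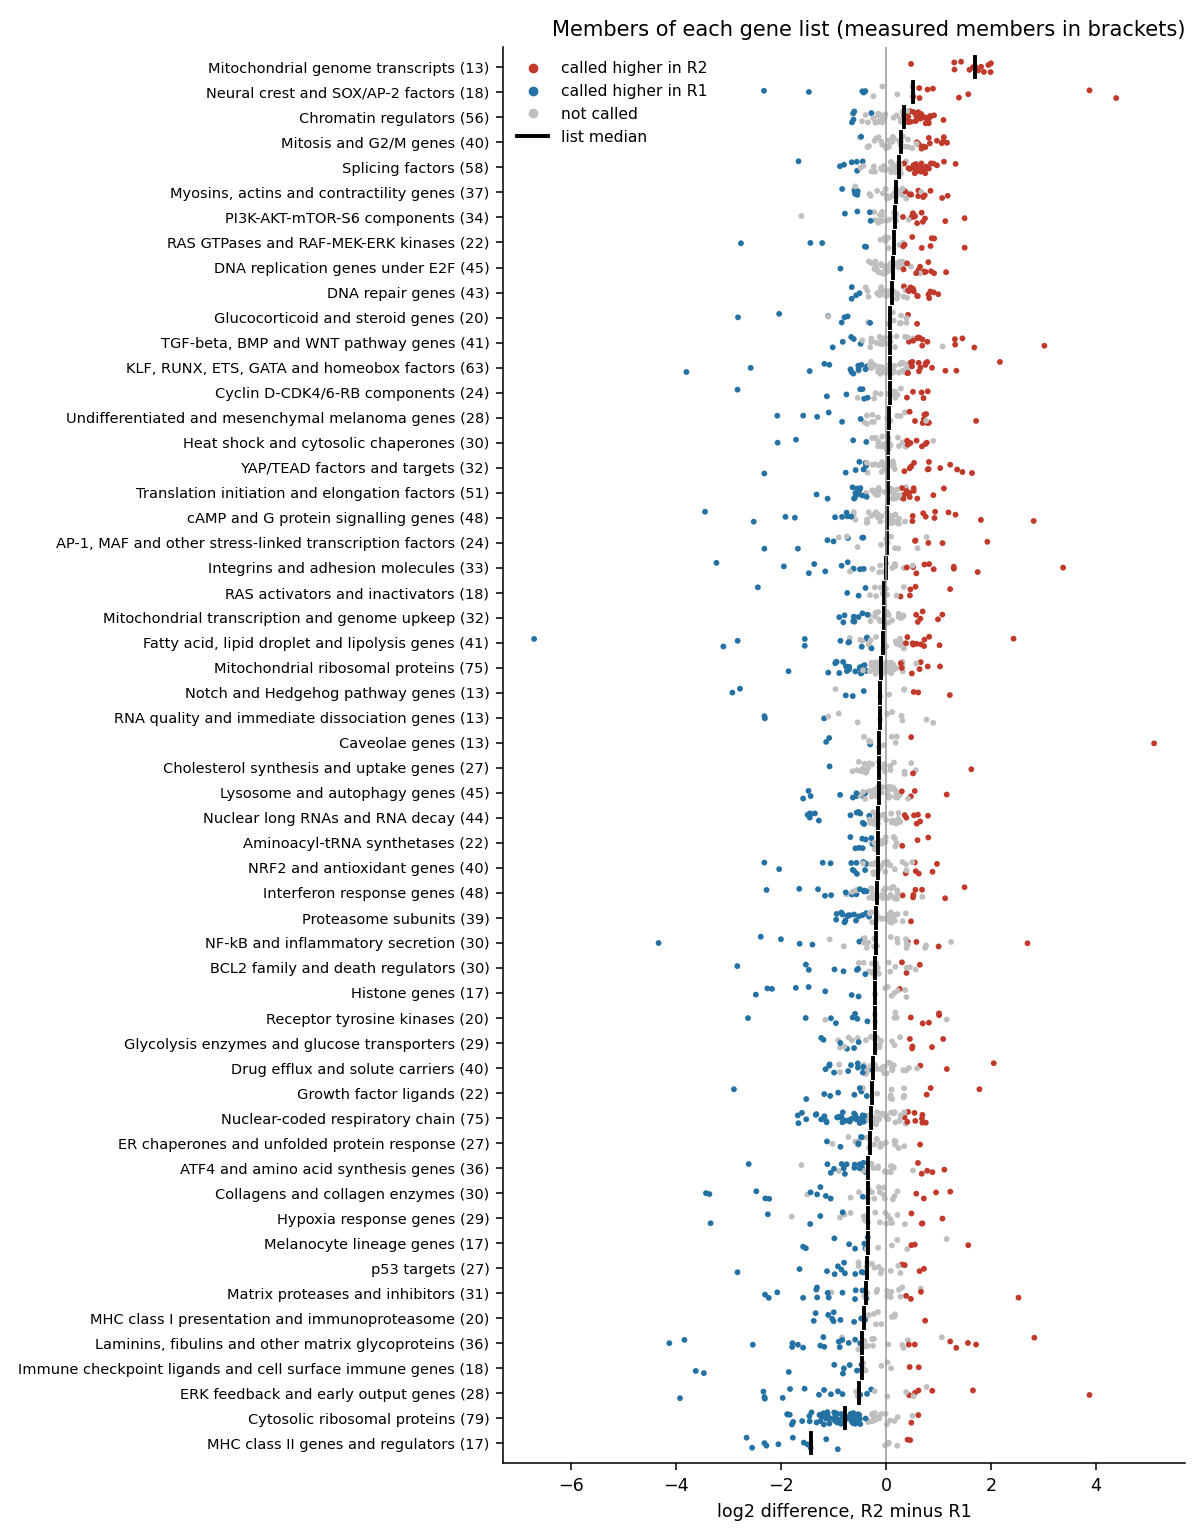
Log2 difference, R2 minus R1, of every measured member of the gene lists with at least 10 measured members, ordered by list median (black bar), with members called higher in R2 in red, called higher in R1 in blue and not called in grey. Mitochondrial genome transcripts lie at the top with a median of 1.70, and cytosolic ribosomal proteins (-0.78) and MHC class II genes (-1.44) at the bottom.

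Several genes named above are also markers of cells other than melanoma. Of 18 endothelial markers 7 were measured and all 7 were higher in R1, their summed value being 168 to 245 in R2, 493 to 656 in R1 and 229 on average in control. TIE1, a receptor of endothelial cells, made up most of it, at 131, 124, 156 and 131 in R2 and 357, 474, 379 and 364 in R1 (log2 difference -1.53, SE 0.12, adjusted p = 2.4e-07). PECAM1 and VWF, defining markers of endothelium, were low, with means of 0.697 and 0.937 in R2 and 2.55 and 4.49 in R1. Every listed gene passed 1 CPM (reads scaled to library size) in at least 4 of the 12 libraries. EGFL7, PECAM1 and VWF had R2 means under that level, so they were listed only because R1 or control libraries passed it. Counts of called markers in this paragraph may therefore partly reflect which genes were listed. TIE1 was far above that level in both groups. CDH5, KDR and TEK were looked up but were not among the listed genes. Of 24 leukocyte markers 4 were measured, with 1 higher in R2 and 3 higher in R1. CD53 read 2.5, 2.93, 11.7 and 12 in R2 and 0.777, 0.79, 0.418 and 0.0927 in R1 (log2 difference 2.70, SE 0.43, adjusted p = 1.7e-04). The sum of the 4 was 12.1 to 23.5 in R2 and 18.6 to 31.4 in R1. PTPRC was looked up but was not among the listed genes, and CD3E was not analysed here. Of 14 fibroblast and pericyte markers 7 were measured, with 2 higher in R2 and 4 higher in R1, and sums of 749.7 to 848 in R2 and 618 to 733 in R1. All 5 measured of 20 keratinocyte and epithelial markers were higher in R1, among them KRT8 and KRT18, keratins of simple epithelium, at -1.77 and -1.49 (adjusted p = 4.3e-06 and 4.6e-04). The part of other cells, or of host reads, in the results on laminins, collagens, receptors and MHC genes was not tested.

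The differences were also described by position in the genome. Of the 12211 genes with a RefSeq position (GRCh38.p14), about 11320 lay in the 236 bins of 10 Mb with at least 20 genes. The medians of these bins lay mostly between -0.39 and 0.39 (5th and 95th percentile). Of the 5 lowest bins 4 were neighbours on chromosome 15. From 90 to 100 Mb the median was -0.68, with 22 of 30 genes higher in R1. It was -0.64 from 80 to 90 Mb (35 of 49), -0.62 from 70 to 80 Mb (48 of 70) and -0.58 from 60 to 70 Mb (36 of 57). Over all of chromosome 15, 243 of 389 genes were higher in R1 and 16 higher in R2 (median -0.52). The other low bin was chromosome 12 from 50 to 60 Mb, at -0.55, with 83 of 131 higher in R1. The highest bins were chromosome 11 from 10 to 20 Mb (0.88, 30 of 39 higher in R2) and from 0 to 10 Mb (0.72, 69 of 93), chromosome 7 from 30 to 40 Mb (0.74, 29 of 35) and from 20 to 30 Mb (0.71, 32 of 45), and the first 10 Mb of chromosome 4 (0.67, 42 of 63). Of the other chromosomes, chromosome 12 had 294 of 672 genes higher in R1 and 80 higher in R2 (median -0.30), and chromosome 9 had 207 of 482 and 36 (median -0.28). The bins were picked by these same differences, so their values are a description. Set beside control, chromosome 15 was lower in R2 (median -0.80 to -0.62 over its bins) than in R1 (-0.41 to -0.09), and the first 20 Mb of chromosome 11 were lower in R1 (-0.64 and -0.67) while R2 was at 0.10 and 0.25.

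Several of the named genes lie in those bins. MAP2K1 (chr15:66386912-66491544) and CORO2B (chr15:68518373-68727806) lie between 60 and 70 Mb of chromosome 15, where 36 of 57 genes were higher in R1. CD276, BCL2A1 and CSPG4 lie in the next bin and ISG20 in the one from 80 to 90 Mb. CDK4 (chr12:57747727-57752310) and HOXC10 (chr12:53985146-53990279) lie in the low bin of chromosome 12, with DDIT3, PMEL, NACA, KRT8 and KRT18. HBE1, OR51B4, IRF7, WEE1 and CTSD lie in the first 10 Mb of chromosome 11, RRAS2, TEAD1, LDHA and EIF4G2 in the next 10 Mb, CPVL and IL6 in the bin of chromosome 7 from 20 to 30 Mb and ANLN in the one from 30 to 40 Mb. The differences of LDHA (1.09) and ANLN (1.06) lay near their bin medians of 0.88 and 0.74, and those of MAP2K1 (-1.44) and CD276 (-3.47) were further from 0 than theirs, -0.58 and -0.62. The bin of NRAS, chromosome 1 from 110 to 120 Mb, had a median of 0.03, with 12 of 55 genes higher in R2 and 13 higher in R1. CDK6 was in a bin with a median of 0.12 and CCND1 in one with -0.14. DNA copy number was not analysed here, and its part in these runs of genes was not tested.

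**Figure D5:**
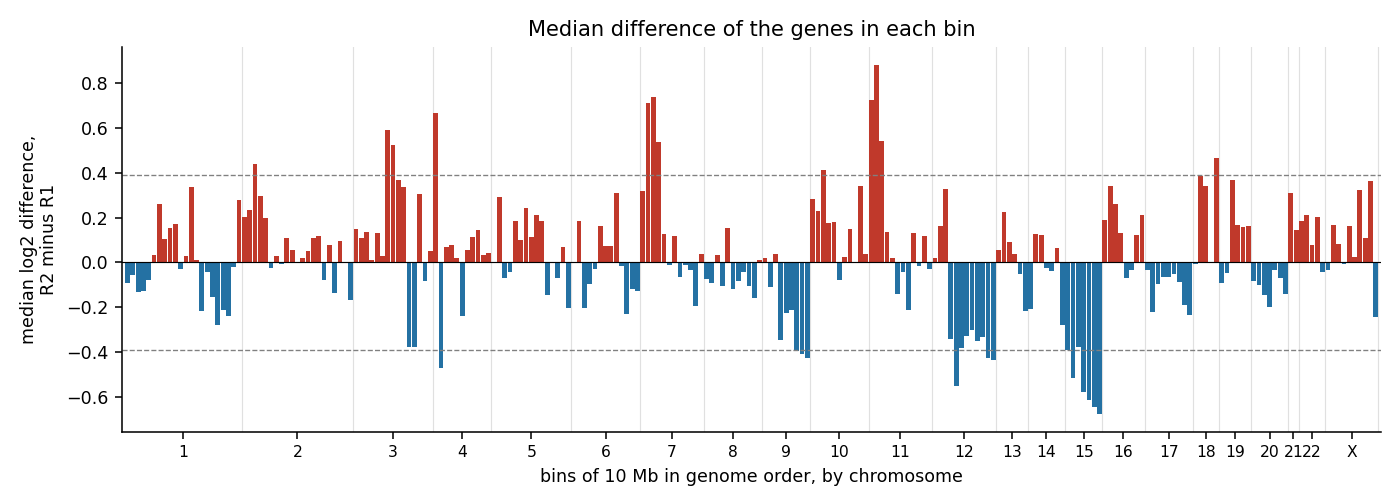
Median log2 difference, R2 minus R1, of the genes in each of 236 bins of 10 Mb, in genome order with the chromosome below, and dashed lines at the 5th and 95th percentile of the bins. Chromosome 15 lies below 0, and stretches of chromosomes 7 and 11 and the first bin of chromosome 4 reach furthest above the upper line. That line is also passed by neighbouring bins of chromosome 3, from 100 to 110 Mb (0.59) and from 110 to 120 Mb (0.52). Single bins of chromosomes 2, 10 and 18 pass it too.

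The control libraries, which both comparisons with the diet share, give a reference point for the direction of these differences. Of the 6053 called genes the control mean was nearer R2 for 3865 (63.9%) and nearer R1 for 2188. It lay between the groups for 3482, above both for 1271 and below both for 1300. Among the 1446 called genes over 2-fold it was nearer R2 for 918 (63.5%). NRAS, G0S2, TNFAIP8L2, KIF21B, LAMA4 and the ribosomal protein genes had control near R2. SNHG14 and FAM101B had control near R1, and COL24A1 and BCAN had control near R1 as well, where R1 and control were both close to absent. These placements are descriptions and carry no test.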

How the data were processed

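RNA was extracted with the Qiagen RNeasy mini kit and libraries were made with TruSeq RNA chemistry, per the labels' protocols. The submitters' processing notes name the aligner STAR, the genome build GRCh38 and edgeR. Versions, the counting tool and the gene filter are not given in the sources used here. From the recovered reads, every listed gene passed 1 CPM in at least 4 of the 12 libraries. A gene under that level in R2 and control, or in R1 and control, was listed only through the remaining group. The authors deposited 1 table per library with a normalised signal for 12931 rows (12929 distinct symbols). From the values, each signal was a whole multiple of 1 step per library within 0.001 reads for 100% of values, so reads were recovered (20003891 to 39009384 per library over all 12). Libraries of a group differed by more than sampling noise in all 18 replicate pairs.

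Samples were grouped by title. The signal was tested as log2(value + 0.5) with limma 3.58.1 (R 4.3.3, empirical Bayes with a mean-variance trend, 3 group means over 12 libraries, two-sided contrast R2 minus R1) and p-values were adjusted by Benjamini-Hochberg over all rows. No filter on low values was added. The script was tested on simulated data. Alternatives were pseudocounts of 0.1 and 1, a mean of at least 1, only the R1 and R2 libraries, edgeR 4.0.16 and DESeq2 1.42.0 on recovered reads, TMM rescaling, scaling without mitochondrial and ribosomal protein genes, a replicate block, and each library left out.

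Named were the 12 called genes with the largest difference in each direction whose group ranges did not overlap and whose larger group mean reached 5 (uncharacterised loci left out), 18 fixed genes, and up to 4 called genes of each of 62 gene lists with the largest difference and the same minimum mean. Most genes in the text are from this set of 259 or from the marker lists, and others were named after their values were seen. A few genes of the set are not reported here. The comparison, the lists and the rule were chosen with earlier results of these data known. PECAM1 and VWF were fixed as markers. Intervals and floors of 3 reads cover counting error only. Gene positions and promoters are from RefSeq (GRCh38.p14), with promoters matched by symbol for 9317 of 12931 rows, and transcript lengths are from GENCODE 29. Python 3.11.15 with pandas 2.3.3, numpy 2.4.6, scipy 1.17.1 and matplotlib 3.10.9 was used for summaries and plots.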

Additional observations from a re-analysis of the deposited data

Results flagged for a closer look

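In 98 groups of 4 libraries, covering 42 genes and 7 library measures in R2 and in R1, 7 held 1 library far from the other 3, its gap to the nearest library taking up more of the group's range than Dixon's 95% critical value allows. Chance alone gives about 1 in 20. R2 replicate 2 was the highest of its group for COL24A1 (30.68), for VGF (7.774) and on the second principal component (7.452). R1 replicate 2 was the highest of its group for VGF (361.6) and for MAP2K1 (121.9). R2 replicate 4 was the lowest for MAP2K2 (202.3). EGFL7 was listed above 0 in R2 replicate 1 only (0.02907, a single read).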

How the results depend on the processing

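Across the 21 alternatives the number of genes called between R2 and R1 ran from 5245 (without R2 replicate 4) to 6206 (DESeq2), beside 6053. Of the 6053 calls, 84.95% to 100% were shared in the same direction and 0 were called in the opposite direction. Of 259 named genes 238 kept their direction and their side of the threshold in every alternative. Results per gene and alternative lost the call 81 times and gained it once, for MITF without R1 replicate 2. RB1 and MAP2K2, neither called, changed sign when 1 library was left out. The RB1 log2 difference ran from -0.0232 (without R1 replicate 3) to 0.1622, and the MAP2K2 log2 difference from -0.0108 (without R1 replicate 1) to 0.1502. Scaling without mitochondrial and ribosomal protein genes gave 2702 genes higher in R2 and 3239 genes higher in R1, which lowered the share of calls higher in R2 from 48.7% to 45.5%. Of 61 gene lists with at least 3 measured members, 45 kept the sign of their median in all alternatives. The labels number the libraries of each group, and the deviations of libraries with the same number correlated at 0.114, 0.108, 0.074 and 0.133 (a description over genes). The labels state no pairing, and with 1 of these under a chosen cutoff of 0.1 the numbers were not taken as pairs. R2 replicate 1 correlated best with R1 replicate 3, and the others with their own number. In control the closest pairs were replicates 1 and 2 and replicates 3 and 4. Their chi-square per degree of freedom was 16.2 and 11.4, against 44.6 to 77.9 for the other control pairs. R2 was split between the same replicate numbers on the third principal component, and the source of this split was not tested. With a replicate block 6162 genes were called, 3024 genes higher in R2 and 3138 genes higher in R1. At these depths 3 reads amount to a signal of 0.0728 to 0.158 per library, so differences among values below that were not detectable at this depth.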

Other observations

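Gene groups not described above follow, most of them with a share of members called that was below the 46.8% of all genes. Of 17 measured histone genes 8 were higher in R1 and 1 higher in R2 (5 and 1 without R1 replicate 3). HIST1H1C, which codes for a linker histone, read 5.44, 20.6, 3.93 and 2.75 in R2 and 31.5, 52.5, 37 and 27.1 in R1 (log2 difference -2.48, SE 0.43, adjusted p = 3.3e-04), and all R1 values were above all R2 values. Core histone gene HIST1H2AC read 3.61, 7.35, 1.78 and 1.65 in R2 and 16.1, 11.1, 20.3 and 20.3 in R1 (log2 difference -2.26, SE 0.34, adjusted p = 9.9e-05).

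Of 43 DNA repair and checkpoint genes 13 were higher in R2 and 4 higher in R1. WEE1, the kinase that delays entry into mitosis, read 25.8, 21.1, 27.4 and 30.8 in R2 and 14.8, 8.51, 13.6 and 15.7 in R1 (log2 difference 0.99, SE 0.17, adjusted p = 3.1e-04). BRCA1 (0.82, adjusted p = 0.0019) and BRCA2 (0.84, adjusted p = 0.0027), which act in repair by recombination, were higher in R2 too.

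Of 30 heat shock and cytosolic chaperone genes 7 were higher in R2 and 4 higher in R1. HSPA8, a constitutive chaperone, was higher in R2 (0.78, adjusted p = 7.0e-04), while HSPB8, a small heat shock protein, was higher in R1, at 5.38, 5.87, 7.93 and 6.93 in R2 and 18.1, 36.5, 33.8 and 30.2 in R1 (log2 difference -2.07, SE 0.21, adjusted p = 3.3e-06). Of 45 lysosome and autophagy genes 9 were higher in R1 and 4 higher in R2, and 2 lysosomal proteases differed in opposite directions. CTSL (cathepsin L) read 27.7, 33.5, 35.7 and 34.5 in R2 and 75.3, 121, 114 and 91.4 in R1 (log2 difference -1.58, SE 0.17, adjusted p = 4.9e-06). CTSD (cathepsin D) read 171, 163, 143 and 129 in R2 and 61, 82.2, 77.6 and 53.1 in R1 (log2 difference 1.16, SE 0.16, adjusted p = 5.2e-05).

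Of 40 drug efflux and solute carrier genes 13 were higher in R1 and 3 higher in R2 (10 and 5 without R1 replicate 2). Among 48 genes of cAMP and G protein signalling, 10 higher in R2 and 9 in R1, PRKAR2B, a regulatory subunit of protein kinase A, read 7.7, 11.3, 8.67 and 8.86 in R2 and 0.801, 1.36, 3.49 and 5.22 in R1 (log2 difference 1.81, SE 0.36, adjusted p = 0.001), and RGS2, a brake on G protein signalling, read 4.1, 4.56, 4.71 and 5.23 in R2 and 14.8, 11.4, 27.6 and 27.2 in R1 (log2 difference -1.92, SE 0.24, adjusted p = 2.1e-05). The transcription factor genes CEBPB and BATF were higher in R1 (log2 differences -1.12 and -1.68, adjusted p = 0.0045 and 5.2e-04).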
